A study of Mus musculus with 44 samples.

Results

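Activity-induced immediate early genes are the first genes that neurons transcribe after synaptic input, before any new protein is made. The 10 genes described here were taken by name and found in both count tables, out of 55487 genes listed: Fos, Fosb, Junb, Egr1, Egr2, Egr4, Npas4, Nr4a3, Arc and Dusp1. The study delivered RXRa, the retinoid X receptor alpha, to the mouse nucleus accumbens with viral vectors. In bulk tissue of males, 4 libraries carried HSV-GFP (a herpes simplex vector with the fluorescent protein alone) and 4 carried HSV-RXRa-GFP. Nuclei sorted as D1 or D2, the projection neurons that carry the dopamine receptors of those names, came from mice given AAV9-CAG-DIO-EGFP or AAV9-CAG-DIO-EGFP-P2A-RXRa, adeno-associated vectors whose insert is switched on by Cre recombinase under the broadly active CAG promoter. The sorted groups were D1 female (5 EGFP, 4 RXRa), D1 male (5 and 4), D2 female (4 and 4) and D2 male (5 and 4), so 35 sorted libraries entered comparisons. All groups, controls included, received a virus. Strain, age, the mouse line that supplies Cre and the number of animals behind a library are not given in the sources used here, so p-values measure the spread between libraries, which may be partly technical.

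Immediate early genes are switched on by calcium and cyclic AMP signals that act through the kinases of the MAPK and CaMK pathways on transcription factors already bound at their promoters, among them CREB and SRF. Most of the proteins they encode are themselves transcription factors: Fos, Fosb and Junb encode subunits of AP-1, Egr1, Egr2 and Egr4 encode zinc finger factors, Npas4 encodes a factor of the bHLH-PAS family induced by calcium entry, and Nr4a3 encodes an orphan nuclear receptor. Arc encodes a protein that trims AMPA receptors from synapses, and Dusp1 encodes a phosphatase that turns MAP kinases off. In the accumbens these genes are used as markers of recent dopamine and glutamate input. RXRa is the obligate partner of many nuclear receptors.

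The promoters are shown because all of the members with an entry in the RefSeq promoter table (GRCm38.p6) hold the core letters of the element that CREB binds. The table had 8 of the 10 members, with none for Egr1 or Arc. The letters searched were TGACG, the CRE half-site, on both strands of the 250 bases before each start. They occurred in all 8 members and in 19.8% of the 27025 genes of the table. The whole palindrome TGACGTCA, which contains the half-site on each strand, occurred in 1.77% of genes and, among the members, in Dusp1 alone. The CArG box, the element that SRF binds, occurred in Egr2 among the members and in 1.62% of all genes, and a TATA box occurred in Fos, Egr4 and Npas4 and in 18% of all genes. The nuclear receptor half-site AGGTCA was found in 0 of the 8 members and in 15.8% of all genes. A match is a description of letters and not a measured binding site. The windows of Fos (chr12:85473640-85473889, plus strand), Egr4 (chr6:85513590-85513839, minus strand), Junb (chr8:84978749-84978998, minus strand) and, without the bases that GENCODE places in an exon, Dusp1 (chr17:26508520-26508722, minus strand) are printed 5′ to 3′ with the CRE letters in capitals.
Fos promoter: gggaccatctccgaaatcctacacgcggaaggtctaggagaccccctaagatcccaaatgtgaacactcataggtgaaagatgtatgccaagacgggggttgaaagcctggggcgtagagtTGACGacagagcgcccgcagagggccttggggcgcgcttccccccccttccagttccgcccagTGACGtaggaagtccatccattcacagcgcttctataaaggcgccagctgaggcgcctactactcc
Egr4 promoter: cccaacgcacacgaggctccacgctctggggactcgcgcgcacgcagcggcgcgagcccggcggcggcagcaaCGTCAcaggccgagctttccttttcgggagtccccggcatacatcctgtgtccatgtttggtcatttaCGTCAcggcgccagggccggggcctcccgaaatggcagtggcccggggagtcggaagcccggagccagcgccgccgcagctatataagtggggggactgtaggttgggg
Junb promoter: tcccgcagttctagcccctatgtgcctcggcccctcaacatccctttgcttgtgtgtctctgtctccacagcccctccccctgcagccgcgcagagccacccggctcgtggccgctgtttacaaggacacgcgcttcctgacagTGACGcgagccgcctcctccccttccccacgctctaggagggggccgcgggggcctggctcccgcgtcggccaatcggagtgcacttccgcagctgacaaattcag
Dusp1 promoter: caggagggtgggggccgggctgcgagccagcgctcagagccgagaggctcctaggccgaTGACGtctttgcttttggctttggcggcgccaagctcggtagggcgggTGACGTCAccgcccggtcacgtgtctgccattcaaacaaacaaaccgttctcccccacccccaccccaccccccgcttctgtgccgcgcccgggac
Fos held 2 half-sites, 129 and 66 bases before its start counted to their first base, and Egr4 held 2 in the opposite orientation. Junb held 1 half-site and Dusp1 held the palindrome with its first base at 143 before the start.

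Silent-gene density is the background measure used below for the sorted nuclei, whose libraries were made from total RNA. It is the median, taken over 1576 genes without a single bulk count (protein-coding, on autosomes, with bodies of 5 kb or more), of CPM (counts per 1000000) per kb of gene body. It ranged from 0.303 to 0.595 CPM per kb over the 35 libraries. Multiplied by a gene's body length and the library total, it gives the counts that a gene would collect at that density, and the fold over background is the observed count divided by that number. A bulk library held between 21567565 and 29167142 counts, and a sorted library between 12211655 and 27757463. The vector's RXRa sequence had 567 to 914 counts in bulk RXRa libraries and 0 in bulk GFP, and 1216 to 13017 against 0 to 17 in the sorted libraries. Drd1 had a median of 50.9 CPM in D1 and 15.1 in D2 libraries, and Drd2 had 64.7 and 803 CPM. Both genes thus had counts in both sorts, at different levels, and their fold over background was not computed.

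In bulk tissue all 10 genes were well above detection, and the factor genes Junb and Egr1 had the highest levels per kb of annotated exon. Such levels depend on the exon length taken and on the features and strand counted, which are not given in the sources used here. Junb and Dusp1 overlap other annotated genes, so their places in the order are uncertain. The medians over 8 libraries were 60.4 CPM per kb for Junb, 43.3 for Egr1, 27.5 for Arc and 20.7 for Egr4. Fos followed at 11.2 and Dusp1 at 9.58, and the lower end held Npas4 at 5.53, Fosb at 3.49, Nr4a3 at 3.08 and Egr2 at 2.00 CPM per kb. The ranges of neighbours in that order overlapped over the 8 libraries for every adjacent pair except Egr4 and Fos, whose ranges were 16.9 to 30.1 and 6.75 to 16.1. The lowest count of any member in a bulk library was 77, for Egr2.

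None of the 10 genes was called changed by RXRa in bulk tissue at an adjusted p of 0.05 (edgeR quasi-likelihood test, Benjamini-Hochberg over 18579 genes). Over all genes, 3.7% were called. DESeq2 and limma voom also called 0 members, and 0 members had an unadjusted p under 0.05. Log2 fold changes ran from -0.12 for Fosb to 0.38 for Fos, with 7 members above 0 and a median of 0.10, where the median of all genes was -0.02. The smallest adjusted p among members was 0.445.

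Fos, the AP-1 subunit most used as a marker of activity, had the largest difference. Its levels were 15.9, 24.5, 37.4 and 17.7 CPM in GFP libraries 1 to 4 and 35.7, 28.1, 22.6 and 37.8 CPM in RXRa libraries 1 to 4. GFP 3 lay as high as the upper RXRa libraries, so the groups overlapped, and the log2 fold change was 0.38 ± 0.27 (SE, n = 4 and 4; adjusted p = 0.448, edgeR). Junb differed by 0.17 ± 0.12 (SE) and Fosb by -0.12 ± 0.21. The zinc finger genes differed by 0.14 ± 0.21 for Egr1, 0.11 ± 0.40 for Egr2 and -0.05 ± 0.18 for Egr4, each with overlapping groups.

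Npas4 and Arc varied most between libraries of a group. Npas4 had 4.46, 22.4, 31.8 and 16.4 CPM in the GFP libraries and 30.2, 14.1, 23.3 and 23.4 CPM in the RXRa libraries. The spread within GFP, 7.14-fold from GFP 1 to GFP 3, exceeded that within RXRa, 2.14-fold, and both RXRa extremes fell inside the GFP range. Arc, the synaptic effector gene, had 30.5, 82.0, 159 and 86.1 CPM in GFP and 136, 69.8, 73.8 and 103 CPM in RXRa. Its GFP range again enclosed all RXRa libraries, with a log2 fold change of 0.10 ± 0.42 (SE). For Npas4 the value was 0.28 ± 0.47, for Nr4a3 it was 0.10 ± 0.18 and for Dusp1 it was -0.09 ± 0.20.

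**Figure D1:**
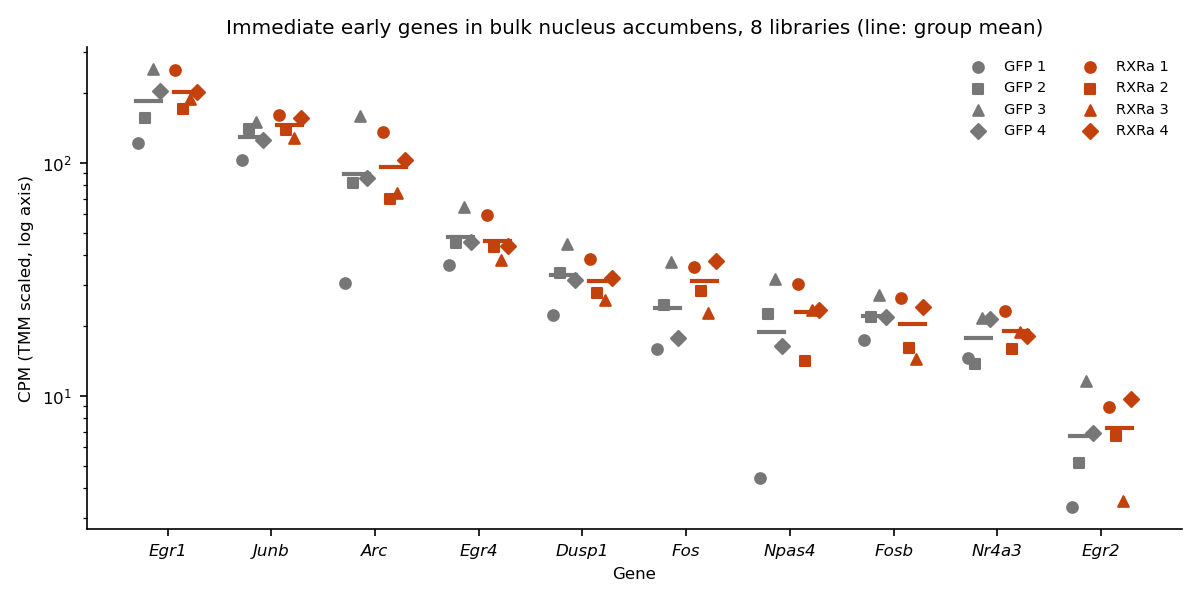
Level of each immediate early gene in the 8 bulk libraries, as TMM-scaled CPM on a log axis; each symbol is a library and the line is the group mean. GFP 1 is lowest for 8 of the 10 genes and GFP 3 is highest for 7, while GFP and RXRa overlap for each gene.

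The members moved together from library to library. The SD of log2 CPM within groups was 0.89 for Npas4, 0.76 for Arc, 0.65 for Egr2 and 0.45 for Fos, down to 0.20 for Junb. The median over members was 0.35, and over all 18579 genes tested it was 0.14. GFP 1 was the lowest library for 8 members, GFP 3 the highest for 7 and RXRa 1 the highest for 2. After centring on the group, Pearson's r was above 0 for all 45 pairs of members, with a median of 0.85 over the same 8 libraries, given as a description since the pairs share libraries and scaling. Of 15999 other genes searched in bulk, the 5 closest to the members' mean pattern were Mylpf (r = 0.98), Sdhaf2 (0.98), Rab12 (0.97), Nr4a1 (0.97) and Phf14 (0.97). Nr4a1 encodes another orphan receptor of the NR4A family. A search of that size over 8 libraries can give a high r without a link between genes. Markers of excitatory cortical neurons (Slc17a7, Slc17a6, Neurod6 and Tbr1) moved in part with the members' order of libraries. Their summed level was 6.72 CPM in GFP 1, 674 in GFP 3 and 429 in RXRa 1, but 505 in RXRa 3, where the members' median rank was 3 of 8, and 66.7 in RXRa 4, where it was 6. The sum of 5 D1 neuron markers also went in part with it, at 498 CPM in GFP 1, 605 in GFP 3 and 576 in RXRa 1. It was 650 in GFP 4, where the members' median rank was 4.5, and 519 in RXRa 4. The interneuron sum was 309 CPM in GFP 1, 437 in GFP 3 and 324 in RXRa 1, but 240 in RXRa 4. The oligodendrocyte sum was 2938 CPM in RXRa 1 and 4153 to 5343 in the other libraries, and the microglial sum was 1492 CPM in GFP 1, 937 in GFP 3 and 1113 in RXRa 1. Between the groups, the summed level of 6 endothelial markers was 205 to 273 CPM in GFP and 277 to 317 in RXRa, ranges that lay close without overlap. The share of all genes separated in this way was not counted. The sum of 5 D2 neuron markers was 1642 to 1946 in GFP and 1503 to 1675 in RXRa. No marker of these lists was at 0 in either group. The part of tissue composition in the members' levels was not tested, and in bulk samples fewer cells of a type and less RNA per cell cannot be told apart.

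In the sorted nuclei the members ranged from genes well above the background density to genes near it. Egr1, Arc, Npas4 and Junb lay at medians of 5.92, 5.46, 3.66 and 2.63 times background over 35 libraries. Fos followed at 1.76, Egr4 at 1.59, Nr4a3 at 1.44, Egr2 at 1.40, Fosb at 1.36 and Dusp1 at 1.15. These folds are per length of gene body in GENCODE M21, which lists 55394 of the 55487 gene IDs of the tables, and their order depends on that length. With RefSeq lengths in the same counts, the median would be 1.14 for Npas4 (19.1 kb in place of 6.0), 6.05 for Junb (1.8 in place of 4.2) and 8.15 for Egr1, and between 1.21 and 5.45 for the others except Dusp1. For Dusp1 it would be 22.6 (2.9 kb in place of 56.5), which would move it from last to first in the order. Among silent genes the 90th percentile was 1.39 to 1.70 times their own median, depending on the library. Egr1 and Npas4 exceeded that percentile in 35 of 35 libraries, Arc in 33 and Junb in 32.

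The remaining genes exceeded the silent genes' 90th percentile less consistently: Fos in 27 of 35 libraries, Egr4 in 20, Egr2 in 16, Nr4a3 in 15, Fosb in 12 and Dusp1 in 0. At the median fold, background of this size would make up 16.9% of the counts of Egr1 and 18.3% of those of Arc, but 56.7% for Fos, 73.8% for Fosb and 87% for Dusp1. Counts were low for several members. Egr4 had a median of 34 counts per library and Fos 62, against 300 for Egr1, and Nr4a3 and Dusp1 reached medians of 615 and 633 over much longer bodies. The body of Dusp1 in GENCODE M21 is 56.5 kb because of a long transcript, and it is 2.9 kb in RefSeq. It overlaps 4 other annotated genes, Ergic1 on the opposite strand among them, and Junb overlaps Prdx2 on the opposite strand. Among silent genes, counts rose with body length to the power 0.979 and with exon length to the power 0.01, so reads outside exons were counted. Whether the counting used strand is not given in the sources used here, so the counts of Dusp1 and Junb are uncertain, and the fold of Dusp1 depends on which body is taken.

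**Figure D2:**
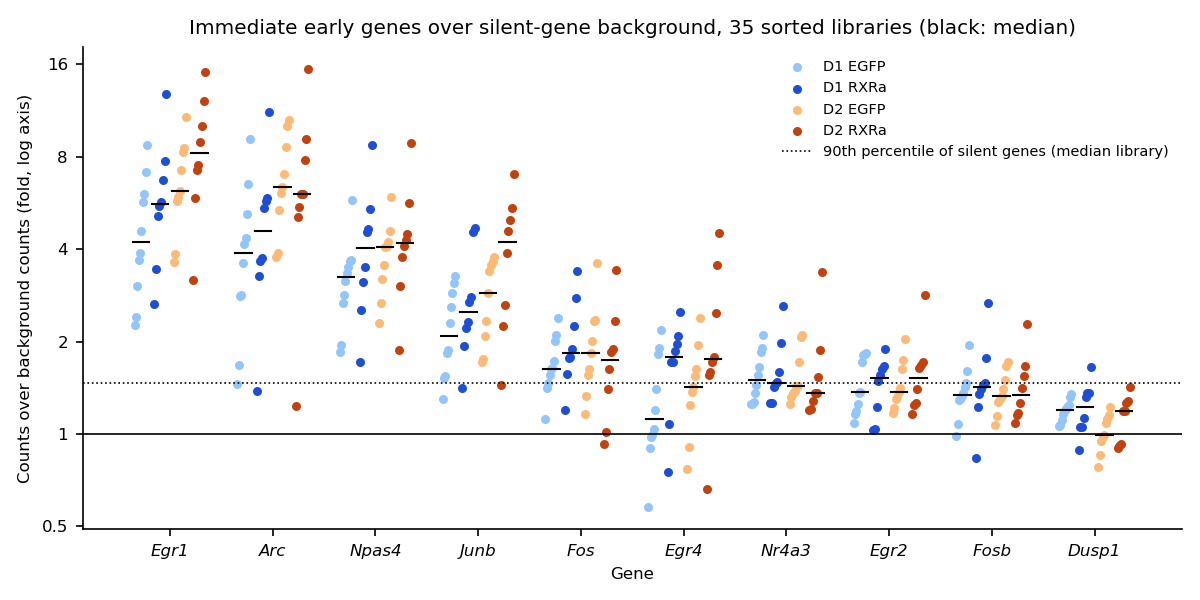
Counts of each gene divided by the counts given by silent-gene density, on a log axis, in 35 sorted libraries by population and vector; black bars are group medians, the solid line is 1 and the dotted line is the median over libraries of the silent genes' 90th percentile. Egr1, Arc, Npas4 and Junb lie mostly above the dotted line, and Dusp1, with its GENCODE M21 body length, lies around 1.

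Between libraries of a group, 8 of the 10 genes were lower where silent-gene density was higher. The slope of log2 expression on log2 density was fitted within the 8 sorted groups, and a slope under 0 means that the level falls as density rises. It was -1.79 ± 0.49 (SE, 35 libraries) for Arc, -1.78 ± 0.36 for Egr1, -1.50 ± 0.36 for Junb, -1.43 ± 0.37 for Egr4 and -1.17 ± 0.29 for Npas4. Shallower slopes were found for Fos (-0.91 ± 0.31), Nr4a3 (-0.63 ± 0.18) and Egr2 (-0.49 ± 0.20), with adjusted p-values between 0.000160 for Egr1 and 0.0491 for Egr2 (edgeR). Fosb (-0.31 ± 0.21, adjusted p = 0.234) and Dusp1 (0.16 ± 0.14, adjusted p = 0.373) did not pass the test. Over all genes, 23.6% were called lower and 21.4% higher.

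Most members fell as density rose, and so did most genes expressed in the tissue. The median slope was 0.16 over all 43902 genes and -0.50 over the 11119 genes with at least 10 CPM in bulk. Of those expressed genes 1925 had a slope above 0. Over 1554 silent genes the median slope was 0.55, but density is computed from such genes, so a value above 0 was set in advance. All members except Dusp1 had a slope under 0 with TMM scaling, and Egr2, Fosb and Dusp1 were above the median of those expressed genes. Single libraries of a group did not follow the slope closely. In the D2 female RXRa group Arc had 20.8 CPM at the lowest density of all libraries (0.303 CPM per kb) and 11.9, 9.40 and 11.3 CPM at 0.406, 0.463 and 0.550. In the D2 male RXRa group it had 8.39 CPM at 0.333, 8.52 at 0.409, 14 at 0.447 and 2.21 at 0.544. Density and CPM come from the same library totals, so they are not independent measures.

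The slopes of the weaker members depended on scaling and on a few libraries. With library totals only, the median slope of all genes rose from 0.16 to 0.58, 5 members were called lower (Arc, Egr1, Junb, Egr4 and Npas4) against a background of 10.9%, Fosb turned to 0.11 and Dusp1 was called higher at 0.58. Without the 2 libraries of lowest density, D2 female RXRa 4 and D2 male RXRa 5, 4 members were called (Arc, Egr1, Junb and Npas4; 20.5% of all genes called lower), and without D2 female RXRa 4 alone, 5 were (19.5%). Within D1 alone 6 members were called lower (16.1% of genes) and within D2 alone 3 were (19.9%), Egr1, Egr4 and Nr4a3.

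**Figure D3:**
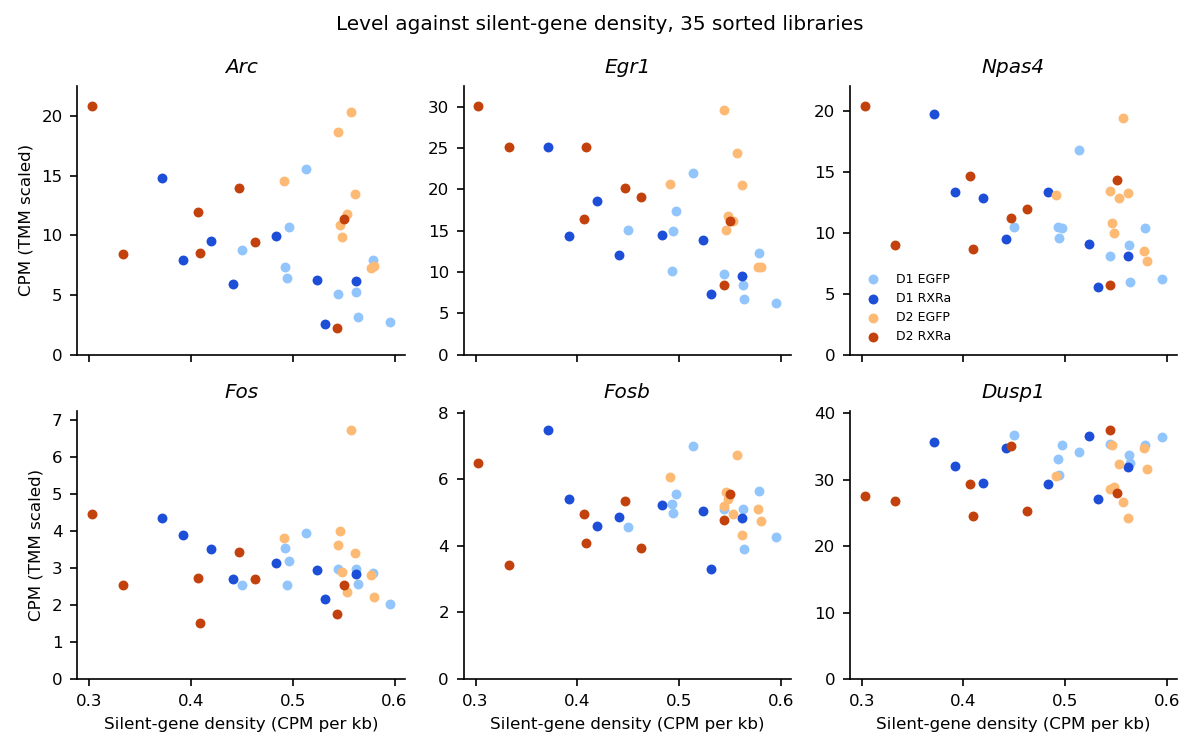
TMM-scaled CPM of 6 genes against silent-gene density (CPM per kb) in 35 sorted libraries, coloured by population and vector. Arc and Npas4 are highest in the library of lowest density and scatter widely at the other densities, and Dusp1 stays between 24.3 and 37.4 CPM.

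None of the 10 genes was called for RXRa in D1 nuclei. No gene of the 43902 tested was called in D1 by edgeR (0% of genes; 3518 genes had an unadjusted p under 0.05, and DESeq2 also called 0), so this is no property of the members. Log2 fold changes ran from -0.14 for Egr2 to 0.29 for Egr4. Egr1 had a median of 11.2 CPM in D1 EGFP (range 6.29 to 22, 10 libraries) and 14.1 in D1 RXRa (7.38 to 25.2, 8 libraries), with overlapping groups and a difference of 0.22 ± 0.24 (SE). Arc had 6.87 (2.72 to 15.5) and 7.08 CPM (2.60 to 14.8), a difference of 0.11 ± 0.29.

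None of the 10 genes was called for RXRa in D2 nuclei either, where 22.1% of all genes were called (9683 of 43902). DESeq2 and limma voom called 0 members as well, and 0 members had an unadjusted p under 0.05, which 37.1% of all genes had. The largest differences were 0.34 ± 0.24 (SE) for Egr4, -0.35 ± 0.18 for Fos and 0.31 ± 0.23 for Junb. Fos had a median of 3.43 CPM in D2 EGFP (2.22 to 6.73, 9 libraries) and 2.62 in D2 RXRa (1.51 to 4.47, 8 libraries), and the adjusted p was 0.163 (edgeR). Junb had medians of 6.45 (3.87 to 8.55) and 7.91 CPM (3.14 to 11.5), and neither difference passed the test. Egr1 had 16.8 CPM (10.6 to 29.6) and 19.6 CPM (8.46 to 30.1), Npas4 had 12.9 (7.73 to 19.5) and 11.6 CPM (5.75 to 20.5), and both pairs of groups overlapped. No member passed the test of a difference in the RXRa effect between D2 and D1, and 0% of all genes did (edgeR; 8.22% of genes and 0 members had an unadjusted p under 0.05). For Fos the difference of effects was -0.46 ± 0.25 (SE, adjusted p = 0.602).

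Background density moved with the vector. It was 0.491 to 0.580 CPM per kb in D2 EGFP and 0.303 to 0.550 in D2 RXRa, and 0.450 to 0.595 in D1 EGFP and 0.371 to 0.562 in D1 RXRa. With log2 density as a covariate 0% of genes were called in D2, and 9 of the 10 members had a fold change under 0. Egr1 then turned from 0.14 to -0.58, Junb from 0.31 to -0.30 and Egr4 from 0.34 to -0.25, while Arc moved from -0.24 to -0.96 and Fos from -0.35 to -0.71. Of the members 6 then had an unadjusted p under 0.05, as did 3.07% of all genes, with an adjusted p of 1 (edgeR). Density was lower with RXRa, so the covariate moves genes with slopes under 0 on density downward by construction. The 6 are therefore no test of RXRa, and density and vector cannot be told apart here. Library totals in place of TMM moved the median of all genes in D2 from -0.04 to -0.20, and Fos (-0.52) and Nr4a3 (-0.35) were then called lower, where 21.3% of all genes were.

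**Figure D4:**
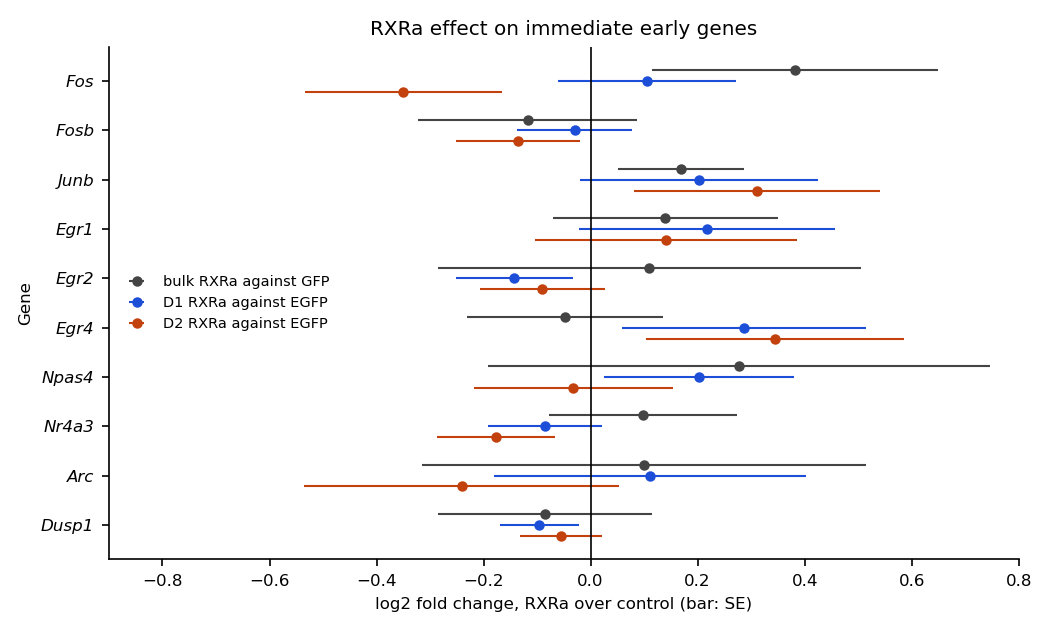
Log2 fold change of RXRa over its control vector with its standard error for each gene in bulk tissue (4 and 4 libraries), D1 (8 and 10) and D2 nuclei (8 and 9), edgeR. Points lie between -0.35 for Fos in D2 and 0.38 for Fos in bulk, and no member was called in any of the comparisons.

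In D2 nuclei the RXRa effect on Npas4 and Nr4a3 was higher in females than in males before adjustment, and neither difference passed the adjusted threshold. Npas4 had 10.8, 13.4, 9.97 and 7.73 CPM in female EGFP libraries and 12, 14.4, 20.5 and 14.7 CPM in female RXRa libraries. In males it had 8.53, 13.3, 12.9, 19.5 and 13.1 CPM with EGFP and 5.75, 11.2, 8.67 and 8.98 CPM with RXRa. In females 3 of 4 RXRa libraries were above all controls, and in males all 4 RXRa libraries were below 4 of the 5 controls, so the groups overlapped in each sex. The difference of effects, females minus males, was 1.20 ± 0.37 (SE, log2 scale; unadjusted p = 0.00284, adjusted p = 1, edgeR).

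Nr4a3 had 35.9, 31.4, 30.0 and 29.3 CPM in D2 female EGFP libraries and 27.6, 30.0, 53.6 and 33.9 CPM in female RXRa libraries. In D2 males it had 29.1, 30.9, 31.3, 47.9 and 41.1 CPM with EGFP and 27.2, 21.6, 24.0 and 25.3 CPM with RXRa. In CPM the male groups did not overlap and the female groups did, but the share of all genes without such overlap was not counted. In fold over background the male groups overlapped, at 1.19 to 1.54 with RXRa and 1.32 to 2.10 with EGFP. All 4 male RXRa libraries lay under the silent genes' 90th percentile. Density was 0.333 to 0.544 CPM per kb in D2 male RXRa and 0.491 to 0.577 in D2 male EGFP, and its part was not tested. D2 female RXRa 4, the library of lowest density, was the only female RXRa library above all female controls. The difference of effects was 0.75 ± 0.22 (SE; unadjusted p = 0.00177, adjusted p = 1, edgeR), and 0.51 without that library. Both were the members with an unadjusted p under 0.05 in that test, which 3.02% of all genes reached and 0% passed after adjustment. Of the members 9 of 10 had a difference above 0 in D2, at a median of 0.29 where all genes had -0.01. That count is a description, since the members share libraries and mostly move together. In D1 the same test gave 0.28 ± 0.35 for Npas4 and 0.10 ± 0.21 for Nr4a3, with 0% of genes called by edgeR (912 at an unadjusted p under 0.05) and 2 by DESeq2.

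**Figure D5:**
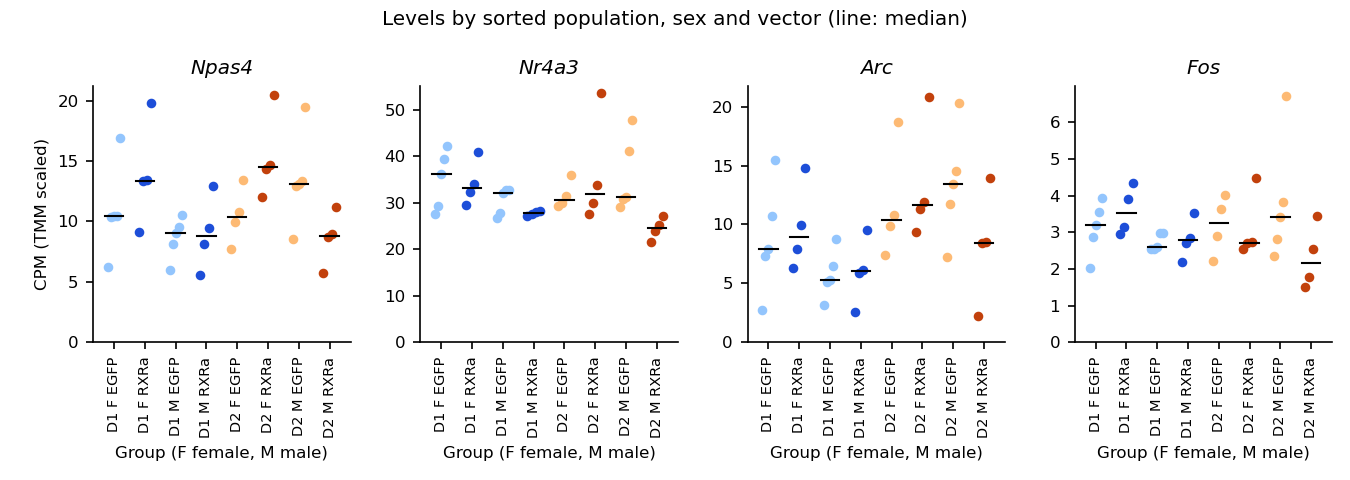
TMM-scaled CPM of Npas4, Nr4a3, Arc and Fos in each sorted group by sex (F, M) and vector; points are libraries and lines are medians. For Nr4a3 the 4 D2 male RXRa libraries span 21.6 to 27.2 CPM and the 5 D2 male EGFP libraries 29.1 to 47.9 CPM. The share of all genes so separated was not counted, and in fold over background these groups overlapped.

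Control nuclei of the 2 populations were compared next. No member was called between D2 and D1 under EGFP, where 0.121% of all genes were. Arc had a median of 11.8 CPM (7.24 to 20.3) in D2 EGFP and 6.87 (2.72 to 15.5) in D1 EGFP, a difference of 0.83 ± 0.28 (SE; unadjusted p = 0.0054, adjusted p = 0.285, edgeR). Egr1 differed by 0.58 ± 0.23 and Dusp1 by -0.17 ± 0.07, both with an unadjusted p under 0.05, which 10.5% of all genes had. Averaged over both vectors, Arc (0.65 ± 0.21, adjusted p = 0.0371) and Egr1 (0.54 ± 0.17, adjusted p = 0.0365) were called higher in D2, where 7.19% of all genes were. No member was called higher in 17 of the 35 fits that left out 1 library. With density as a covariate Arc, Egr1 and Junb (0.37 ± 0.13) were called higher and Dusp1 lower (-0.15 ± 0.05), where 10.9% and 6.55% of all genes were. Fos, Fosb and Nr4a3 differed by 0.02, 0.01 and 0.003 over both vectors without the covariate, and by -0.025, -0.002 and -0.020 with it. Between females and males under EGFP no member was called and none had an unadjusted p under 0.05, with differences from -0.16 for Junb to 0.25 for Egr4, where 4.43% of all genes were called and 6.54% had such a p. Averaged over both vectors, 9 members were above 0 in females at a median of 0.21 (all genes -0.02), and 5 had an unadjusted p under 0.05, which 7.24% of all genes had: Nr4a3 (0.22 ± 0.08), Npas4 (0.36 ± 0.13), Egr2, Fosb and Arc. Members share libraries and mostly move together, so these counts are a description and not independent results. No member was called after adjustment, where 4.77% of all genes were (smallest adjusted p = 0.137, edgeR), and with library totals Nr4a3 was (adjusted p = 0.0486; 3.82% of genes called higher).

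Other rapid response genes, a list of 29 that holds further AP-1, EGR and NR4A genes and their regulators, were mostly above 0 in bulk tissue with RXRa. Of these, 23 had a fold change above 0, with a list median of 0.26 where all genes had -0.02, and 14 had an unadjusted p under 0.05, which 21.5% of all genes reached. The genes share the same 8 libraries, so these counts are not independent and the shift is given as a description. Beside this shift, the endothelial sum had medians of 249 CPM in GFP and 292 in RXRa and the excitatory cortical sum 85.8 and 259, and their part in it was not tested. Of the list 2 genes were called in bulk, where 3.7% of all genes were. They were Ptgs2, the inducible cyclooxygenase (0.88 ± 0.10, SE; adjusted p = 0.00688, edgeR), and Gadd45g, a stress and demethylation factor (0.53 ± 0.11; adjusted p = 0.0326). The number called was 0 without GFP 4, 1 without RXRa 2, 3 or 4, 3 without GFP 3 and 5 without RXRa 1, and DESeq2 called 8. With the replicate block 0 genes of the list were called in bulk. In D2 nuclei Gadd45b was called higher (0.41 ± 0.14; adjusted p = 0.0333), where 14.9% of all genes were, and 15 of 29 were above 0. With density as a covariate no gene of this list was called in D2 and 4 of 29 were above 0. That covariate moves genes with slopes under 0 on density downward, because density was lower with RXRa. No gene of the list was called higher in D2 without female EGFP 5, female RXRa 4 or 5, male EGFP 1, or male RXRa 2, 3 or 5, and 5 were without male RXRa 1. On density, 15 of the 29 were called lower and none higher (23.6% and 21.4% of all genes), with Egr3 at -1.82, Jund at -1.80 and Homer1, a synaptic scaffold gene, at -1.46.

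Delayed activity-induced genes (18, among them neuropeptide and synaptic genes) gave 1 call in each direction in bulk, where 3.7% of all genes were called. Crem, a CREB family regulator, was higher by 0.44 ± 0.10 (SE; adjusted p = 0.0414, edgeR), and Scg2, a secretory granule protein, was lower by 0.38 on the log2 scale (-0.38 ± 0.06; adjusted p = 0.0132). Neither direction had a call with the replicate block or without GFP 4, and no list gene was called higher in bulk without GFP 2, GFP 3, RXRa 2, RXRa 3 or RXRa 4 either. In D2 nuclei 4 were called higher with RXRa, Cartpt (0.77 ± 0.24), Plk2 (0.73 ± 0.26) and Syt4 (0.72 ± 0.26) with the largest values, where 14.9% of all genes were called higher. Bdnf, the neurotrophin gene, was called lower (-0.30 ± 0.06), where 3135 of 43902 genes were. With density as a covariate 0 of the 18 were called in D2 in either direction, as was the case without D2 female RXRa 4, and the other D2 libraries left out 1 at a time gave 0 to 9 called higher and 1 lower. In the slope on density Bdnf was called higher (0.53) and 10 list genes lower, where 21.4% and 23.6% of all genes were. The slope of Bdnf was near the median of the silent genes (0.55). Penk and Pdyn, opioid peptide genes of D2 and D1 neurons, differed between control populations by 2.73 ± 0.33 and -1.77 ± 0.16, which checks the sort labels.

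Signalling and transcription factors that act on the promoters of these genes (22, among them Creb1, Srf and Mef2c) were called higher with RXRa in D2 nuclei for 19 of 22, where 14.9% of all genes were, with a list median of 0.37 against -0.04. The sum of 5 D2 neuron markers in the same nuclei was 762 to 1472 CPM with EGFP (median 1303) and 890 to 2743 with RXRa (median 1866), and its part in the change was not tested. All 22 were called lower in the slope on density (23.6% of all genes), at a median of -0.89, and with density as a covariate 0 of 22 were called for RXRa in D2. Without D2 female RXRa 4 the number called was 0, without D2 male RXRa 5 it was 6, without female EGFP 1, female EGFP 5 or male RXRa 3 it was 12, and with library totals only or with D2 groups fitted alone it was 9. In bulk Crtc2, a CREB coactivator, was called higher (0.29 ± 0.06) and Rps6ka5, a kinase of histones and CREB, lower (-0.30 ± 0.06), where 3.7% of all genes were called. None of these bulk calls was made with the replicate block or without GFP 2, GFP 4, RXRa 3 or RXRa 4, and no factor was called higher in bulk without GFP 1 or GFP 3.

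Across the 35 sorted libraries the members moved together less evenly than in bulk. Pearson's r after centring on the group was above 0 for 38 of 45 pairs, with a median of 0.54 and a range of -0.37 to 0.94, as a description. Of 32510 other genes searched, Nr4a1 was closest to the members' mean pattern (r = 0.95), followed by 1700016P03Rik (0.91), Dusp14 (0.86), Btg2 (0.83) and Pank4 (0.78). The SD of log2 CPM within sorted groups was 0.67 for Arc, 0.55 for Egr1 and 0.48 for Junb, against 0.16 for Dusp1, and the median was 0.37 over members and 0.20 over all genes.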

How the data were processed

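Both deposited tables, bulk and sorted, hold raw counts by gene, which the authors left unscaled. Per the labels' protocols, the bulk kit selected poly(A) RNA, and the sorted kit took total RNA after removal of ribosomal RNA and keeps strand. The submitters' processing notes name the build GRCm38 and the tools FastQC, Trimmomatic, HISAT2, Picard, featureCounts and Subread. The counted features and the use of strand are not given in the sources used here. Gene positions come from GENCODE M21 (GRCm38), which holds 55394 of the 55487 identifiers.

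Each table was fitted apart with edgeR 4.0.16 in R 4.3.3 (quasi-likelihood test, filterByExpr, TMM), and p-values were adjusted by Benjamini-Hochberg over all genes of a fit. A gene was called at an adjusted p under 0.05. The 35 sorted libraries shared a fit of 8 group means, sexes had equal weight in contrasts across them, and 9 contrasts were tested. Alternatives used RLE factors, library totals, other filters, limma 3.58.1 (voom), DESeq2 1.42.0, subsets of groups, density as a covariate, a replicate block and each library left out. CPM are counts per 1000000 of the TMM-scaled library size. The fits were tested on simulated data.

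The members, the wider lists, the density measure and the tests were chosen with earlier results of these data known. The text names the 10 members always, from each list at most 3 called genes per direction and comparison with the largest fold change, and the 5 other genes of at least 1 CPM closest to the members' mean pattern. Sums of the 8 marker lists except astrocytes are given beside results. A few genes of the wider and marker lists are not reported here and were left out of the lists' counts and sums. A D2 library with conflicting vector names in its title and its characteristics was kept out of every comparison. Each library counted as 1 replicate. No pair of 72 within groups was alike within sampling noise (chi-square over its degrees of freedom, 1.91 to 73.5). That comparison cannot tell whether the libraries of a pair came from the same animals. Precision is limited by counts, whose totals are given with the results.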

Additional observations from a re-analysis of the deposited data

Results flagged for a closer look

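Among 100 sets of libraries of 1 group tested for 1 gene, 8 had a library set apart from the others by its gap, where chance sets apart about 1 in 20. In D1 female RXRa, replicate 1 was highest for Egr1 (25.2 CPM), Fosb (7.46 CPM) and Junb (7.53 CPM). In D2 female RXRa, replicate 4 was highest for Egr4 (3.38 CPM) and Fos (4.47 CPM). These replicates had the lowest silent-gene density of their groups, 0.371 and 0.303 CPM per kb, and the part of density in their levels was not tested. Egr2 was highest in D1 male RXRa replicate 5 (4.71 CPM) and in D2 male EGFP replicate 4 (7.52 CPM), and Fosb was lowest in D1 male RXRa replicate 2 (3.31 CPM).

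The library left out of all comparisons, a D2 female library whose title and vector label disagree, was above all 4 D2 female EGFP libraries in fold over background for 6 members. It had 2.96 for Fos (highest of the 4: 2.33), 1.60 for Fosb (1.50), 4.01 for Junb (3.56), 1.85 for Egr2 (1.75), 5.61 for Npas4 (4.23) and 1.83 for Nr4a3 (1.71). For each of these 6 genes it lay within the range of the 4 D2 female RXRa libraries, such as 1.40 to 3.42 for Fos and 4.11 to 8.89 for Npas4.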

How the results depend on the processing

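No member was called for RXRa under any alternative except library totals in D2, where 2 were (Fos and Nr4a3). Averaging both vectors called 2 members between D2 and D1 (Arc and Egr1), 4 with the density covariate, 1 with limma voom and 0 with the replicate block (adjusted p = 0.0604 for Arc and 0.0567 for Egr1). In the slope on density 8 members were called, 3 in D2 alone, 4 without the 2 libraries of lowest density (an alternative chosen after seeing the data) and 5 to 8 with 1 library left out.

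Over all genes, the 687 bulk calls became 1598 with DESeq2, 0 with a replicate block and 9 (without GFP 4) to 1016 (without RXRa 1) with 1 library left out. The 9683 D2 calls became 2547 in D2 groups alone, 0 with density as a covariate and 0 (without D2 female RXRa 4) to 14766 (without D2 male RXRa 1) with 1 library left out. The 53 calls between control populations became 92 with DESeq2, 134 in EGFP groups alone, 203 with the density covariate and 5360 over both vectors. The 1947 calls between sexes became 1024 at a mean of at least 1 CPM. The sex difference of the D1 effect gave 2 calls with DESeq2 and 0 to 3 with 1 library left out. The 19769 slope calls became 11572 in D1 and 11126 in D2 alone, which test fewer samples. The cause of the other changes was not tested.

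Directions of uncalled members turned as follows. With the density covariate, D1 values were -0.24 for Arc, -0.13 for Egr1, -0.076 for Fos, -0.096 for Junb and -0.042 for Npas4, and D2 values were -0.58 for Egr1, -0.25 for Egr4, -0.30 for Junb and 0.0047 for Dusp1. With library totals Egr1 in D2 was -0.050 and the slope of Fosb 0.11, and in D1 alone the slope of Dusp1 was -0.055. With 1 library left out, the D1 ranges were -0.036 to 0.26 for Arc and -0.094 to 0.024 for Fosb. The D2 ranges were -0.0017 to 0.31 for Egr1, -0.22 to 0.027 for Egr2 and -0.13 to 0.085 for Npas4. Between control populations they were -0.0002 to 0.13 for Egr2 and -0.013 to 0.088 for Nr4a3. In bulk they were -0.19 to 0.53 for Arc, -0.24 to 0.095 for Dusp1, -0.015 to 0.33 for Egr1, -0.12 to 0.50 for Egr2, -0.19 to 0.13 for Egr4, -0.26 to 0.011 for Fosb, -0.052 to 0.66 for Npas4 and -0.010 to 0.20 for Nr4a3.

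Same-numbered libraries did not deviate together in every pair (correlations of -0.53 to 0.49 in bulk), so the numbers were not taken as a pairing. The replicate block called 8535 genes for RXRa in D2 and 8 members in the slope, and changed no call of a member for RXRa, in the slope or between groups under EGFP. Counting depth limits Egr4 and Fos most in the sorted libraries, at medians of 34 and 62 counts.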

Other observations

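The unassigned library had 15630501 counts in total, a silent-gene density of 0.505 CPM per kb and 2941 counts of the vector's RXRa sequence, where the sorted EGFP libraries had 0 to 17. The synaptic gene Arc had 8.97 times background there and Egr1 8.27 times, with 247 and 337 counts. Dusp1, the MAP kinase phosphatase, had 1.13 times background with 505 counts, and Egr4 had 1.85 times with 36 counts.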
